A study of Mus musculus with 8 samples.

Results

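In Oli-neu cells, a mouse line of the oligodendrocyte lineage, the promoters of 3867 protein-coding genes carried a peak of acetylated lysine 27 of histone H3 (H3K27ac) both in proliferation and in differentiation. They were 3867 of 21951 protein-coding genes, or 17.6% (95% exact Clopper-Pearson binomial interval 17.1% to 18.1%). The genes were selected on the measured peaks themselves: a gene belonged here when the stretch between 3000 bp before and 100 bp after its transcription start site (TSS) shared at least 1 bp with a peak in each of the 2 deposited peak lists. Membership, and the width and strength of the peaks that decided it, are therefore given as a description. These genes made up 74.2% of the 5212 genes with a promoter peak in proliferating cells and 63.5% of the 6085 with one in differentiating cells. A further 1345 genes were marked in the proliferating list only, 2218 in the differentiating list only and 14521 in neither.

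H3K27ac was measured by chromatin immunoprecipitation followed by sequencing, with 1 library per state. The labels describe the cells as oligodendrocyte progenitors of embryonic origin and C57BL/6 background, and name no genetic change. Proliferating cells were kept in medium with T3, L-thyroxine, bFGF and Pdgf-BB, and differentiating cells were without growth factors for 1 day in the presence of PD174265, an inhibitor of Erb receptors, at 1 µM. The study's culture methods give a longer differentiation for this line. With 1 library per state there was no spread between replicates and no test between the states, and the intervals below cover counting error only. The lists held 28924 peaks in proliferating and 27965 in differentiating cells, without read counts, so the depth behind a peak is unknown. No input library is named in the sources used here.

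H3K27 is acetylated mainly by the coactivators p300 and CBP, and the mark lies on nucleosomes next to active promoters and enhancers. Mammalian promoters fall into a broad class rich in CpG dinucleotides, typical of genes that most cells use, and a CpG-poor class in which TATA boxes are more frequent and which many tissue-restricted genes use. In the oligodendrocyte lineage, SOX10, OLIG1 and OLIG2 specify and mature the cells, and cholesterol made by the cells themselves goes into the myelin membrane.

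The stretches just upstream of the TSS show how far these promoters differed in sequence. The following 4 genes were chosen because they lie near the extremes of CpG content, the first 2 being among the 3 most CpG-rich and Scd2 among the 3 most CpG-poor of the 100 genes with the strongest peaks. Sox10 is the lineage regulator. Each stretch holds the 150 bases before the TSS on GRCm38 with no annotated exon in it, and capitals mark every CpG.
Dot1l (chr10:80755056-80755205, plus strand): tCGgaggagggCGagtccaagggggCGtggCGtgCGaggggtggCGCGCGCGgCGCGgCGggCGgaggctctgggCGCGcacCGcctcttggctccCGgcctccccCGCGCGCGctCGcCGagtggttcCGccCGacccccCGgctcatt
Dnajb12 (chr10:59879406-59879555, plus strand): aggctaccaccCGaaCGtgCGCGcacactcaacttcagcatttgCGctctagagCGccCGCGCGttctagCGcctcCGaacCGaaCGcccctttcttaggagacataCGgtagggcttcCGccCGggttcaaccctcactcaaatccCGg
Scd2 (chr19:44293524-44293673, plus strand): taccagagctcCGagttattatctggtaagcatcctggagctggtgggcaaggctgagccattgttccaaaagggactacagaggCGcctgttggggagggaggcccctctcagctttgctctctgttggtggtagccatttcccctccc
Sox10 (chr15:79165241-79165390, minus strand): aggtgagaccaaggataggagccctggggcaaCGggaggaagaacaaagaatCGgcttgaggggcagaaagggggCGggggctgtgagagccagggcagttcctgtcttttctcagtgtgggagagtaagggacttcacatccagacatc
Dot1l, which encodes the H3K79 methyltransferase, had 26 CpGs in these 150 bases, and Dnajb12, which encodes a chaperone of the endoplasmic reticulum, had 17. Scd2, which encodes a stearoyl-CoA desaturase of the brain, had 2, and Sox10 had 3. All 4 promoters were marked in both states by the choice of genes, and all had peaks over the TSS in each list.

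Another 6 stretches show the short promoter motifs that were counted across all genes and are described below. They were chosen after the motif counts were seen, each to show a different arrangement. Capitals mark the matches to any of the counted motifs on either strand, among them the 5-letter CRE site (TGACG), which is part of the full cAMP response element (CRE).
Sc5d (chr9:42264257-42264406, minus strand): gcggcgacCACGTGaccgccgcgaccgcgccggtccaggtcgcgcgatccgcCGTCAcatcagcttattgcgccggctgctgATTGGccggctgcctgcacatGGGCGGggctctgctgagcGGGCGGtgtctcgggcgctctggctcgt
Rps29 (chr12:69159187-69159294, minus strand): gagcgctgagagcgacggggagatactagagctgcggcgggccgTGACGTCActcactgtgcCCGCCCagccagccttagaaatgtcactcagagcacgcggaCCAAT
Kmt2e (chr5:23434291-23434440, plus strand): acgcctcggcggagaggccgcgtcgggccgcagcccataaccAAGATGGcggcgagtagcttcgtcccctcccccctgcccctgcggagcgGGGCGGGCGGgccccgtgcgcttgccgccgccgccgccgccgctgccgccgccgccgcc
Rpl32 (chr6:115808748-115808897, minus strand): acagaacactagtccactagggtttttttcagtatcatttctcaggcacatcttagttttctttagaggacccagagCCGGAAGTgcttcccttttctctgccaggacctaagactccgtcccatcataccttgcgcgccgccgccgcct
Fos (chr12:85473740-85473889, plus strand): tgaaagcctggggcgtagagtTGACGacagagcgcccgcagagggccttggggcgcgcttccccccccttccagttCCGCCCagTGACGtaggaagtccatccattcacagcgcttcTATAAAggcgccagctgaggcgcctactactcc
Padi2 (chr4:140906194-140906343, plus strand): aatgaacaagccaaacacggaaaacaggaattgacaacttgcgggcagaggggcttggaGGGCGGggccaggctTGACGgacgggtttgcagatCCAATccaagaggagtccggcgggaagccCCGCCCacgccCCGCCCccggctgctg
Sc5d, of sterol synthesis, holds an E-box, a CCAAT box, 2 GC boxes and a 5-letter CRE site. Rps29, a ribosomal protein gene shown over 108 bases because an exon lies beyond, holds a full CRE, a GC box and a CCAAT box. Kmt2e, of a family of chromatin regulators, holds a YY1 core and 2 GC boxes that overlap each other. Rpl32 holds an ETS core and no GC box. Fos holds a TATA box, a GC box and 2 of the 5-letter CRE sites, and Padi2 a CCAAT box, 3 GC boxes and a 5-letter CRE site.

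Peaks sat over the TSS in most genes. In the proliferating list 2828 of the 3867 genes (73.1%) had a peak over the TSS, 637 (16.5%) had peaks upstream of it only, and in 402 (10.4%) the peak began within the 100 bp downstream. In the differentiating list the numbers were 3056 (79.0%), 529 (13.7%) and 282 (7.29%). The TSS lay under a peak of both lists in 2455 genes (63.5%, interval 61.9% to 65.0%), and 328 genes (8.48%) had only upstream peaks in both. Coverage was highest 100 bp downstream of the TSS, where 81.0% of the genes had a proliferating peak and 83.7% a differentiating peak. It fell to 12.3% and 12.8% at 1000 bp upstream and to 13.2% and 13.3% at 1000 bp downstream. Farther out the upstream side, which the rule used, was the higher, with 3.18% and 3.10% at 3000 bp upstream against 1.06% and 0.828% at 3000 bp downstream. The highest point lies at the downstream edge of the region that chose the genes.

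**Figure D1:**
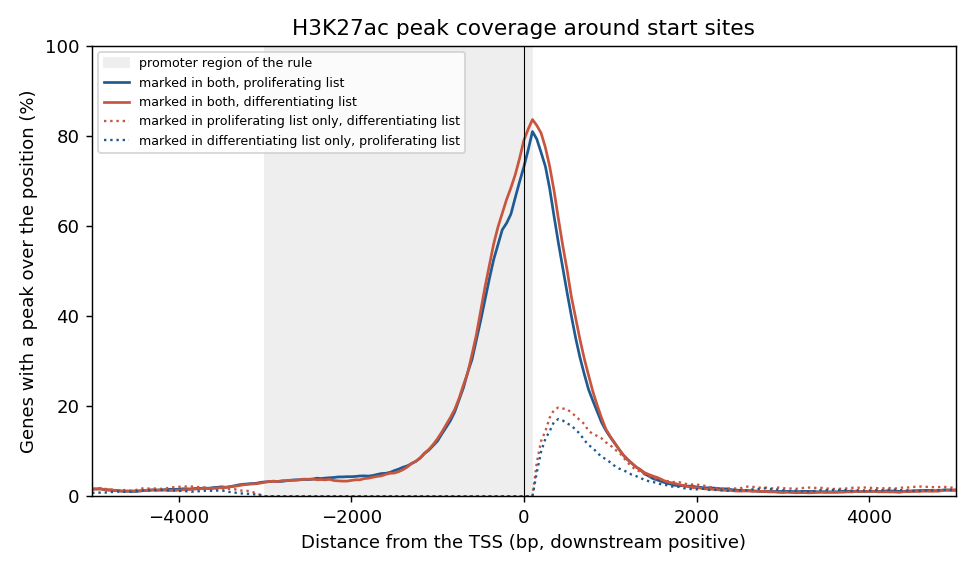
Share of genes with an H3K27ac peak over each position within 5000 bp of the TSS on either side, in steps of 50 bp. Solid lines are the 3867 genes marked in both states and reach 81.0% and 83.7% at 100 bp downstream; dotted lines show, for genes marked in 1 list only, the peaks of the other list, which are 0 inside the shaded promoter region by the rule and reach 19.7% and 17.1% at 400 bp downstream.

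The promoter peaks of the 2 lists mostly overlapped, which the choice of genes favours, since both had to touch the same region. In 3724 genes (96.3%, interval 95.7% to 96.9%) the 2 promoter peaks shared at least 1 base, and the median overlap of the best pair was 678 bp. Their centres lay a median of 177 bp apart, within 200 bp in 2013 genes (54.1%) and within 500 bp in 3291 (88.4%). The differentiating peak was the wider in 2046 genes and the proliferating peak in 1674. In the remaining 143 genes (3.70%) the 2 lists had separate peaks in the region, with a median gap of 927 bp between them. Map2, which encodes a microtubule protein of neurons, was one of these: its proliferating peak ended 2605 bp upstream of the TSS and its differentiating peak covered the TSS.

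Promoter peaks of these genes were wider and stronger than the lists as a whole, a description only, since wide peaks touch a promoter region more readily. The 3867 genes were served by 3367 distinct peaks in the proliferating list (11.6% of it) and 3360 in the differentiating list (12%), and 15.5% of these peaks in either list served more than 1 of the genes. Their median width was 922 bp in the proliferating list, against 652 bp for all its peaks and 697 bp for promoter peaks of genes marked in that list only. In the differentiating list the median widths were 990, 755 and 748 bp. Peaks at the shortest width a list contained made up 5.05% of the promoter peaks against 22.9% of all peaks in proliferating cells, and 2.86% against 17.5% in differentiating cells. Among the strongest peaks, those whose −log10 q reached 5, 45.7% of the proliferating and 43.2% of the differentiating ones belonged to these promoters. The median fold enrichment was 3.66 and 3.49. The rank of a gene's best peak by −log10 q differed between the lists in both directions. The difference, differentiating minus proliferating, had a median of 0.261 percentile points and quartiles of -11.6 and 14.03, and reached 96.3 points.

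**Figure D2:**
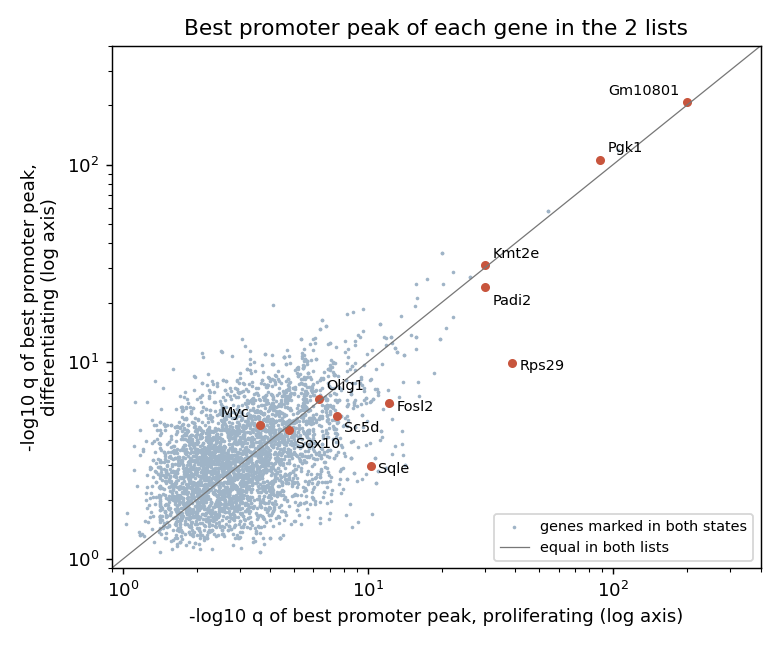
The −log10 q of each gene's best promoter peak in the proliferating (x, log axis) and differentiating (y, log axis) list, 1 library each, for the 3867 genes, with selected genes in red and the line of equal values. Gm10801 lies at 201 and 208 and Pgk1 at 88.9 and 106, and Sqle and Rps29 lie below the line.

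CpG content, which the rule did not use, separated these promoters from the rest. In the 300-base window from 250 bases before the TSS, the median ratio of observed to expected CpG was 0.83 in genes marked in both states, 0.71 in those marked in proliferating cells only, 0.75 in those marked in differentiating cells only and 0.33 in those marked in neither. A window was called CpG-rich with a GC content of at least 0.5 and a ratio of at least 0.6. By this measure 78.8% (interval 77.5% to 80.1%) of the genes marked in both states were CpG-rich, against 57.2% and 66.2% of the genes marked in 1 list and 26.0% of the unmarked genes. Read the other way, the share of genes marked in both states was higher in each step of the ratio, from 1.72% (interval 1.38% to 2.1%) below 0.2 to 44.0% (41.5% to 46.5%) at 1 and above. The share of genes marked in the proliferating list only was 2.97% in the lowest and 9.20% in the highest step, and that of genes marked in the differentiating list only was 2.53% and 16.7%. Of 9056 CpG-rich promoters 33.6% were marked in both states, and of the other 12875 promoters 6.36%. With no input library named, how far base composition acts on the peak calls was not tested.

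**Figure D3:**
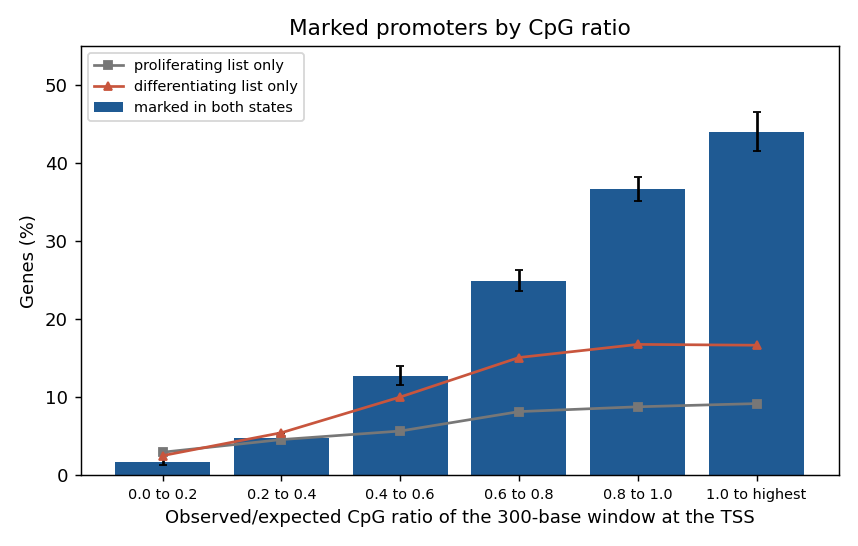
Share of protein-coding genes marked in both states (bars, with exact 95% binomial intervals) or in 1 list only (lines) by the CpG ratio of the 300-base window at the TSS. The bars climb from 1.72% to 44.0%, the line for the proliferating list only from 2.97% to 9.20% and that for the differentiating list only from 2.53% to 16.7%.

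Divergent promoters, where 2 genes on opposite strands start within 1000 bp of each other and face apart, were frequent. A divergent protein-coding neighbour was present for 618 of the 3867 genes (16%, interval 14.8% to 17.2%) and for 6.78% of all protein-coding genes. It was present for 8.62% and 12% of the genes marked in 1 list only and for 3.36% of unmarked genes. Of the 734 divergent pairs, 271 had both genes marked in both states, 68 had 1 and 395 had none. The 2 promoter regions of a pair overlap only around the start sites, but each takes in the start site of the partner. A peak at the partner's start site can therefore mark both genes. The rule thus favours divergent genes, and the 2 genes of a pair are not independent. Mrps5, a mitochondrial ribosomal protein gene, and Zfp661 start 128 bp apart and were marked by the same peaks, the proliferating one ending 6 bp short of the TSS of Zfp661. Another pair was Hnrnpa2b1, which encodes an RNA-binding protein, and Cbx3, which encodes the heterochromatin protein HP1 gamma, whose start sites, 466 bp apart, both lay under 1 peak in each list.

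Short motifs in the 300-base window, searched on both strands, differed in how often they occurred. The GC box (GGGCGG), which SP1 binds, was present in 67.6% of the promoters marked in both states and in 43.0% of all promoters. The ETS core (CCGGAAGT) was present in 8.50% against 4.70%, the NRF1 core (GCGCATGC) in 6.87% against 3.71%, the E-box (CACGTG) in 11.0% against 7.76% and the full CRE (TGACGTCA) in 3.73% against 2.43%. The TATA box (TATAAA) was rarer, in 5.39% against 12.7%, as were the AP-1 site (TGANTCA) in 3.50% against 6.91% and the Sox motif (ACAAAG) in 12.4% against 17.8%. CCAAT was present in 37.7% against 39.0%.

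Among CpG-rich promoters alone, those marked in both states are set beside those marked in neither. The GC box was present in 75.9% and 75.1%, and the E-box in 12.3% and 11.8%. The Sox motif was present in 10.7% and 11.1%, the AP-1 site in 2.86% and 3.44% and the full CRE in 4.44% and 3.78%. The intervals of these 3 motifs overlapped. The TATA box was present in 3.75% (interval 3.10% to 4.49%) and 5.56% (4.85% to 6.33%). The YY1 core (AAGATGG) was present in 8.35% (interval 7.39% to 9.39%) and 5.08% (4.4% to 5.83%), the NRF1 core in 8.09% (7.14% to 9.12%) and 5.21% (4.52% to 5.97%), and the ETS core in 9.57% (8.55% to 10.7%) and 6.61% (5.84% to 7.45%). The 5-letter CRE site was present in 38.9% and 33.9%. CpG-rich promoters marked in 1 list only had like shares for some of these motifs: the YY1 core was present in 7.67% of those marked in the proliferating and 8.73% of those marked in the differentiating list only, the NRF1 core in 5.59% and 7.16%, and the 5-letter CRE site in 37.6% and 37.4%. The ETS core was present in 13.0% (10.7% to 15.6%) and 11.2% (9.62% to 12.9%) of them. A match says only that these letters occur in the window.

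Genes of the basic machinery of the cell were marked in both states more often than the 17.6% of all genes. Pooled over 16 lists (translation, splicing, transcription, chromatin, replication, cell cycle, transport, protein turnover and respiration), 326 of 971 genes were marked in both states, or 33.6% (interval 30.6% to 36.6%). Of the pooled genes 70.3% were CpG-rich, against 41.3% of all genes. The equal figure of 33.6% for all CpG-rich promoters is not a like comparison, since the pool also holds CpG-poor genes. The pooled share among CpG-rich promoters alone was not calculated. The lists differed widely among themselves. Among CpG-rich promoters alone they ranged from 23.3% for DNA replication factors to 64.2% for splicing genes. RNA polymerase II and its factors (34.3%) and aminoacyl-tRNA synthetases (32.3%) lay near the 33.6% of all CpG-rich promoters. Mitochondrial ribosomal proteins (28.6%) and proteasome subunits (25%) lay below it.

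Splicing stood at the upper end of these lists. Of 68 genes of the spliceosome and the hnRNP proteins, which bind and package nascent RNA, 36 (52.9%, interval 40.4% to 65.2%) were marked in both states, and of those with a CpG-rich promoter 34 of 53 (64.2%). Only 2 were marked in the proliferating list alone and 9 in the differentiating list alone. Hnrnph3, Hnrnpa2b1 and Sf3a2 had the strongest peaks, with −log10 q of 8.12, 6.40 and 6.38 in proliferating and 8.12, 8.10 and 6.80 in differentiating cells. Of 80 genes of histone-modifying enzymes and readers 34 (42.5%) were marked in both states. The strongest after Kmt2e were Kat5, which encodes the acetyltransferase TIP60, at 9.56 and 18.6, and Kmt5b, a histone H4 lysine 20 methyltransferase gene, at 8.85 and 9.92.

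Transcription and translation genes lay lower and overlapped in their intervals. For RNA polymerase II, its general factors and Mediator the count was 25 of 82 (30.5%), led by Med16, a Mediator subunit gene, with −log10 q of 11.2 and 15.6. Cytosolic ribosomal protein genes were marked in 33 of 84 cases (39.3%, interval 28.8% to 50.5%) and mitochondrial ones in 18 of 78 (23.1%, 14.3% to 34.0%). Rps29 had the highest fold enrichment of all 3867 genes in the proliferating list, 11.0, against 5.57 in the differentiating list. Ribosomal protein genes have many processed copies in the genome, so their peaks rest on the reads that the authors could place uniquely. Translation initiation factors stood at 19 of 55 (34.5%), with Eif3b, Eif1 and Eif3d strongest, and aminoacyl-tRNA synthetases at 11 of 38 (28.9%).

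Protein handling and transport gave a mixed picture. Ubiquitin-conjugating enzymes were marked in 15 of 37 cases (40.5%) and heat shock and DnaJ chaperones in 32 of 82 (39.0%), among them Hspa8, the constitutive HSP70 gene, with −log10 q of 9.80 and 6.18. Proteasome subunits stood near the background, 10 of 50 (20%, interval 10.0% to 33.7%), with another 16 marked in the differentiating list only and 4 in the proliferating list only. Psmc3, an ATPase subunit gene of the proteasome, had 12.6 and 12.4. Nuclear genes of oxidative phosphorylation stood at 34 of 103 (33.0%), Rab GTPases, which steer vesicles, at 19 of 69 (27.5%), nucleoporins at 7 of 21 (33.3%) and kinesins at 9 of 39 (23.1%). Solute carriers (55 of 371, 14.8%) and C2H2 zinc finger genes named Zfp (89 of 394, 22.6%) were near the share of all genes.

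The cell cycle lists differed in their shares. Cyclins and cyclin-dependent kinases stood at 14 of 43 (32.6%), led by Cdk12 and Cdk9, whose kinases act on RNA polymerase II, with −log10 q of 11.9 and 5.65 in proliferating and 12.1 and 9.72 in differentiating cells. DNA replication factors stood at 10 of 42 (23.8%, interval 12.1% to 39.5%, which includes the share of all genes), with Cdt1, a licensing factor gene, at 2.77 and 3.28. Replication-dependent histone genes, whose products package new DNA, were marked in both states in 32 of 67 cases (47.8%, interval 35.4% to 60.3%) although 22.4% of them had a CpG-rich promoter. A further 17 were marked in the proliferating list only and 2 in the differentiating list only. Over all genes the order was the reverse, 1345 and 2218. The median width of the best peak of the 32 histone genes was 1558 bp in proliferating and 999 bp in differentiating cells. Histone genes lie in clusters of near-identical copies, so several share a peak and their counts are uncertain.

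**Figure D4:**
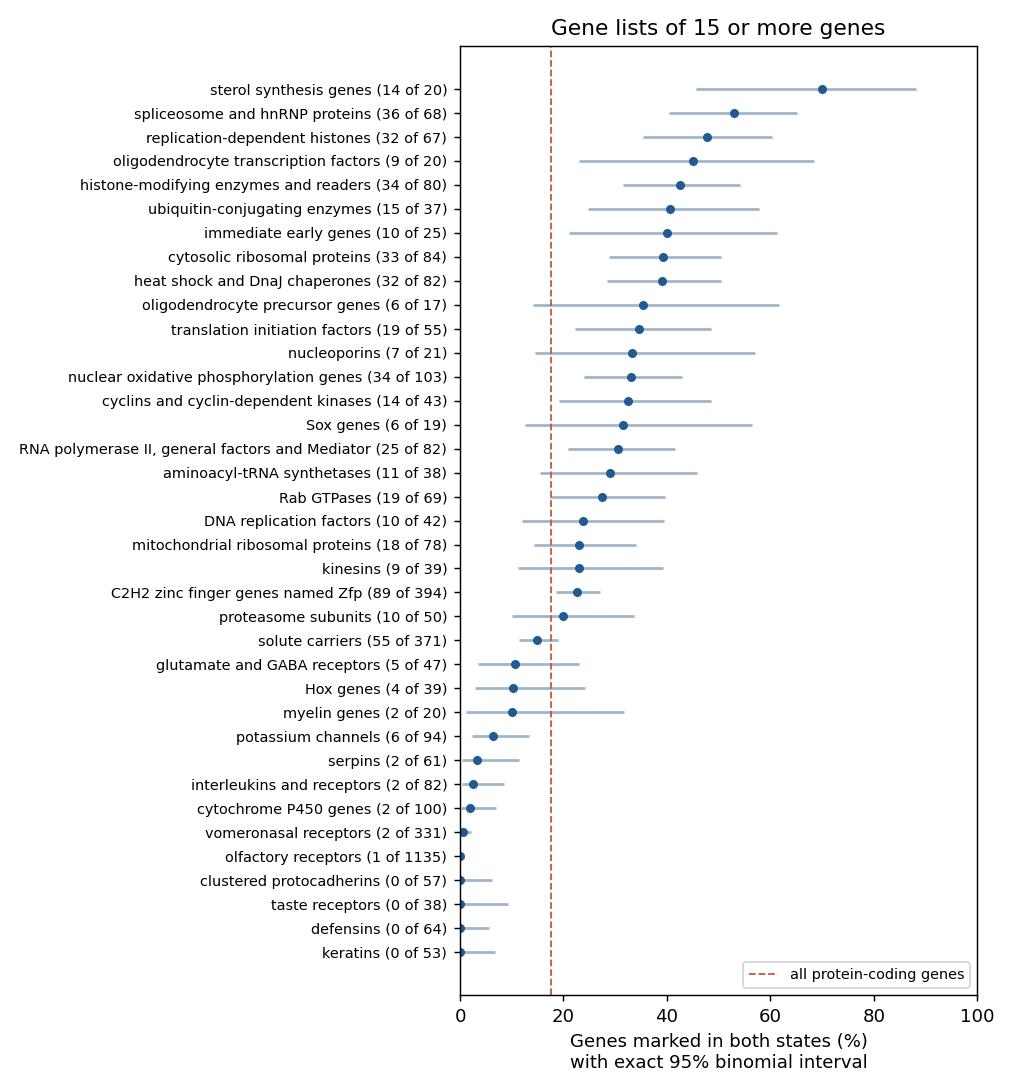
Share of genes marked in both states in each list of 15 or more genes (points, with exact 95% binomial intervals), with the number of genes in brackets and the share of all protein-coding genes, 17.6%, as a dashed line. Sterol synthesis genes lie at 70%, and olfactory, taste and defensin genes at or near 0.

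Sterol synthesis had the highest share of the lists. Of 20 genes of the pathway from acetyl-CoA to cholesterol 14 were marked in both states (70%, interval 45.7% to 88.1%), among CpG-rich promoters 11 of 13. Among them were Acat2 and Hmgcs1 of the first steps, Mvd, Idi1 and Fdps, which make the isoprenoid units, Sqle and Lss, which form the sterol ring, and Cyp51, Tm7sf2, Nsdhl, Hsd17b7 and Sc5d of the later steps. Of the other 6 genes, Mvk and Dhcr7 were marked in the proliferating list only, Msmo1 in the differentiating list only, and Pmvk, Fdft1 and Ebp in neither.

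The peaks of 13 of these 14 genes ranked higher within the proliferating list than within the differentiating list by −log10 q, where over all 3867 genes 1888 did. Sqle had 10.3, at percentile 99.2, in the proliferating list and 2.97, at percentile 80.2, in the differentiating list, and Lss had 6.91 and 2.77. Hmgcs1 had 3.29 and 1.84, and Sc5d, the strongest by the smaller of both values, 7.46 and 5.31. Acat2 was the exception in rank, with 2.37 in proliferating and 3.04 in differentiating cells. Mvd was almost tied in rank, at percentiles 88.2 and 87.8. Its −log10 q was the higher in differentiating cells, with 3.47 in proliferating and 3.65 in differentiating cells. The median percentile of the 14 genes was 94.8 in the proliferating and 79.6 in the differentiating list, against 82.0 and 83.0 for all genes marked in both states. With 1 library per state this difference has no replicate check.

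Immediate early genes, which growth factors and stress induce within minutes, were marked in both states in 10 of 25 cases (40.0%, interval 21.1% to 61.3%). They were Fos, Jun, Fosl2, Myc, Egr1, Srf, Klf4, Klf6, Ier2 and Nr4a3. Among CpG-rich promoters the count was 8 of 20, and its interval, 19.1% to 63.9%, includes the 33.6% of all CpG-rich promoters. Fosl2, an AP-1 subunit gene, had −log10 q of 12.3 and 6.17, and Nr4a3, an orphan nuclear receptor gene, 8.21 and 9.02 in a peak that ended 1869 bp upstream of the TSS in proliferating cells. Myc had a wide peak in proliferating cells, which began 1323 bp before the TSS and ended 2156 bp after it, with 3.63, and one of 3327 bp in differentiating cells, with 4.81. Fos and Egr1 were weak in both, with 1.86 and 1.81 for Fos and 2.25 and 1.41 for Egr1. Junb and Ier5 were marked in the proliferating list only and Fosb, Jund and Atf3 in the differentiating list only.

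Transcription factors of the oligodendrocyte lineage were marked in both states in 9 of 20 cases (45%, interval 23.1% to 68.5%). Among CpG-rich promoters the count was 6 of 13, and its interval, 19.2% to 74.9%, includes the 33.6% of all CpG-rich promoters. Olig1, a basic helix-loop-helix factor gene of the lineage, had the strongest, with −log10 q of 6.34 in proliferating and 6.49 in differentiating cells, in peaks that began 91 and 20 bp downstream of the TSS. Sox10 had one of the widest, 2743 and 3654 bp, over a promoter with a CpG ratio of 0.22. The peaks of Olig2 lay upstream, ending 1863 and 1495 bp before the TSS. Zfp24, which encodes a zinc finger protein of myelination, had 4.08 and 6.23, Sox6, a repressor gene of precursors, 2.58 and 3.77, and Zeb2, needed for differentiation, 2.27 and 3.68. Chromatin and architectural factors completed the list: Smarca4, the BRG1 ATPase gene, had 2.80 and 4.49, Chd8 2.52 and 2.43, and Yy1 4.04 and 2.23. Myrf, the master regulator gene of myelination, Sox8 and Prrx1 were among those marked in the differentiating list only, and Chd7, Sox5 and Tcf7l2 in the proliferating list only.

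Genes of oligodendrocyte precursors were marked in both states in 6 of 17 cases (35.3%, interval 14.2% to 61.7%). Ptprz1, a receptor phosphatase gene, had −log10 q of 6.54 and 4.23, Tnr, which encodes tenascin-R, 4.33 and 4.51, and Bcan, which encodes the matrix proteoglycan brevican, 4.06 and 2.73. Cacng4 had 3.32 and 3.22, Lhfpl3 3.22 and 2.09, and Gpr17, a receptor gene of committed precursors, 2.18 and 2.08. All 6 ranked higher within the proliferating list, by a median of 4.85 percentile points, although Tnr had the higher −log10 q in differentiating cells. Over all 3867 genes the quartiles of the rank difference, differentiating minus proliferating, were -11.6 and 14.03. Erbb2 was marked in the proliferating list only, and Neu4 and Id2 in the differentiating list only. Without replicates the difference in rank was not tested. Pdgfra and Cspg4, the classical precursor markers, had no promoter peak in either list at the single TSS used for each gene.

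Myelin genes were marked in both states in 2 of 20 cases (10.0%, interval 1.23% to 31.7%), below the share of precursor genes but with overlapping intervals. Both intervals include the share of all genes, 17.6%. Ugt8a, which encodes the enzyme of galactosylceramide synthesis, had −log10 q of 4.02 and 6.84. Nfasc was marked in the differentiating list only, and 17, among them Mbp, Mag, Mog, Cnp and Mobp, in neither. Each gene was judged at a single TSS, the upstream end of its annotated span, so peaks at its other start sites were not counted. With the TSS of every transcript 5387 genes in all were marked in both states, against 3867.

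Markers of other cell types differed by cell type. None of 8 microglia markers and none of 6 endothelium markers had a promoter peak in either list, which allows shares of up to 36.9% and 45.9%. Of 8 astrocyte markers S100b, which oligodendrocyte cells also express, and Aldoc were marked in both states, with −log10 q of 1.73 and 3.13 for S100b and 1.71 and 4.67 for Aldoc. Gja1 and Slc1a3 were marked in the proliferating list only, and Gfap, Aqp4, Slc1a2 and Aldh1l1 in neither. The astrocyte share was 25%, and its interval, 3.19% to 65.1%, includes the share of all genes. Of 11 neuron markers Map2 alone was marked in both, with 1.91 and 2.87, while Gad1 was marked in the proliferating list only and Syt1 in the differentiating list only.

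Families of tissue-restricted genes were nearly absent. Pooled over their lists 20 of 2005 genes were marked in both states (0.998%, interval 0.610% to 1.54%), and 3.69% of them had a CpG-rich promoter. Olfactory receptors stood at 1 of 1135, vomeronasal receptors at 2 of 331, and keratins, defensins and taste receptors at 0 of 53, 64 and 38, which allows shares of up to 6.72%, 5.60% and 9.25%. Of 100 cytochrome P450 genes 2 were marked, and 1 of them was Cyp51 of sterol synthesis. Neuronal receptor and channel genes lay between: 6 of 94 potassium channel genes (6.38%) and 5 of 47 glutamate and GABA receptor genes (10.6%). Among the latter, Gria2, which encodes an AMPA receptor subunit, had a −log10 q of 2.69 in proliferating and 3.54 in differentiating cells.

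Among developmental families, Sox genes were marked in 6 of 19 cases, Hox genes in 4 of 39 and clustered protocadherins in 0 of 57, which allows a share of up to 6.27%. The Sox genes were Sox2, Sox6, Sox10, Sox11, Sox12 and Sox21, and the median width of their best peaks was 2215 bp in proliferating and 2039 bp in differentiating cells. Of the Hox genes, which pattern the body axis, Hoxd3 and Hoxd4 start 2 bp apart in this annotation and share 1 peak in each list, so they count as 1 promoter.

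The strongest promoter peaks of all were of 2 kinds. Ranked by the smaller of the 2 −log10 q values, 7 of the first 10 genes were predicted models named Gm and a number. Gm10801 and Gm10800 on chromosome 2 shared a peak of 5328 bp with −log10 q of 201 and 208 but a fold enrichment of only 3.10 and 3.05, and Gm21738 on chromosome 14 had 105 and 118 at a fold of 2.46 in both lists. Gm10722, Gm11168, Gm17535 and Gm10715 lay at the start of the assembled sequence of chromosome 9, with fold enrichments from 1.56 to 1.79. The reference marks 47.6% of the proliferating peak of Gm10801 as repeats, 83.7% of that of Gm21738, 96.3% of that of Gm10722 and 94.1% of that of Gm17535. The widest promoter peaks, of Gm10717, Gm10718 and Gm10719, belong to the same stretch of chromosome 9, with 9012 bp in proliferating and 13859 bp in differentiating cells for Gm10717. Over all genes named Gm and a number 102 of 1506 (6.77%) were marked in both states, so these few models are not typical of that group.

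The other 3 of the first 10 were Pgk1, Kmt2e and Padi2. Pgk1, which encodes the glycolytic enzyme phosphoglycerate kinase, had −log10 q of 88.9 and 106 and fold enrichments of 9.89 and 9.79, in peaks that began 561 and 560 bp before the TSS and ended 303 and 319 bp after it. It lies on chromosome X, where few promoters were marked. Padi2, which encodes the peptidylarginine deiminase that the study is about, had 30.05 and 23.9 at fold enrichments of 9.13 and 8.57. The repeats of the reference covered 8.09% of the Pgk1 peak and 0 of the Padi2 peak in proliferating cells. Over the whole Padi2 gene the proliferating list had 10 peaks and the differentiating list 9, and each touched an exon. Lines overexpressing Padi2 from a construct were also made in the study, and whether construct DNA entered the peaks of Padi2 or Pgk1 was not tested. Padi1, Padi3, Padi4 and Padi6 had no promoter peak in either list. Kmt2e had 30.1 and 31.0 at a lower fold, 3.44 and 3.37, in a peak of 2309 bp in proliferating cells. Apart from Pgk1 and Padi2, the highest fold enrichment in the differentiating list was 7.42, at Chmp3, a gene of the ESCRT-III membrane scission complex.

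Marked promoters were spread unevenly over the chromosomes. Their share was highest on chromosomes 10 (27.8%, interval 25.1% to 30.7%), 15 (26.9%), 1 (26.2%) and 11 (24.1%), and lowest among the autosomes on chromosomes 14 (9.20%, 7.40% to 11.3%), 7 (10.1%) and 13 (11.2%). On chromosome X 24 of 948 genes (2.53%, 1.63% to 3.74%) were marked. Among CpG-rich promoters alone the spread remained, from 49.2% on chromosome 10 and 46.7% on chromosome 1 to 20.7% on chromosome 14, 19.9% on chromosome 13 and 7.76% on chromosome X. All peaks of the lists, promoter or not, showed a wider range: chromosome 15 had 27.03 and 27.01 peaks per Mb, chromosome 10 23.0 and 22.9, chromosome 13 4.16 and 4.26 and chromosome X 0.783 and 0.859. The number of copies of each chromosome in this line was not tested, and no input library was at hand to set beside the counts.

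**Figure D5:**
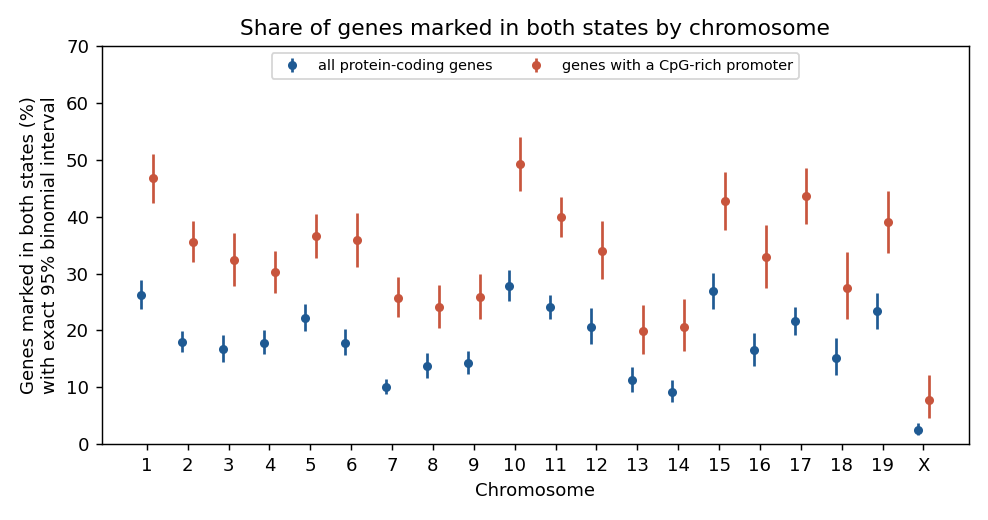
Share of protein-coding genes marked in both states on chromosomes 1 to 19 and X, for all genes and for genes with a CpG-rich promoter, with exact 95% binomial intervals. Chromosomes 1, 10 and 15 are high in both series and chromosome X is low, at 2.53% and 7.76%.

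The boundary of the group was not sharp. Stmn1, which encodes the microtubule regulator stathmin, Tent2 and 4930505A04Rik were inside by 1 base in 1 of the lists, and 602 of the 3867 genes had under 100 promoter bases covered in at least 1 list. Just outside, Gucd1 missed a proliferating peak by 1 bp and Chrm4 and Fam228b by 2 bp. Of the 3563 genes marked in 1 list only, 399 had a peak of the other list within 100 bp of the region and 904 within 1000 bp. In genes marked in proliferating cells only, the differentiating list covered up to 19.7% of the genes at 400 bp downstream of the TSS, so the call that a promoter was marked in 1 state only rested in part on the downstream edge of the region.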

How the data were processed

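H3K27ac ChIP-seq peak lists of 2 Oli-neu libraries (proliferating, differentiating) were used. The 6 ATAC-seq samples were not analysed here. Per the labels, the authors aligned reads to GRCm38/mm10 (Bowtie2 2.1.0, SAMtools), called broad peaks (MACS2 2.0.10) in each library and removed blacklisted regions with bedtools. Each deposited peak carries a text cell with a fold enrichment ratio, a −log10 p and a −log10 q score, read in MACS output order because no header names them. Ranks were taken within each list separately. Duplicate removal precedes the deposited lists, and peak calling without a named input can move with copy number, repeats and base composition.

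Genes, start sites and exons came from GENCODE M21 (GRCm38) and sequence from the RefSeq GRCm38.p6 genome. A single TSS was used for each gene, the upstream end of its whole annotated span. The CpG ratio is the number of CpGs times the window length, divided by the product of the numbers of C and G. Python 3.11.15, NumPy 2.4.6, pandas 2.3.3, SciPy 1.17.1, pysam 0.24.0 and matplotlib 3.10.9 were used. The promoter calls were tested on simulated data.

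A gene's support was the smaller of its 2 best −log10 q. Genes named are the 10 of highest support, the 5 widest, up to 3 per list with at least 3 members, all members of the oligodendrocyte and cell type lists, the Padi family, the 3 nearest either side of the boundary and the 3 highest and 3 lowest CpG ratios among the 100 of highest support. Other members of the sterol and immediate early lists, Chmp3, Chd7 and similar unmarked or single-list genes were named after their values were seen. Members and lists were chosen with earlier results of these data known. Without replicates no test was run, and the depth per peak is unknown. Values of a few members of the gene lists are not reported here.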

Additional observations from a re-analysis of the deposited data

How the results depend on the processing

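The main count, 3867 genes, was 374 among peaks whose −log10 q reached 5 and 1680 when at least 50% of the peak had to lie inside the region; a q of at most 0.05, other regions, every transcript's TSS, chromosomes 1 to 19, a shared base between the peaks, and leaving out repeat-rich windows and the mitochondrial genome (added after seeing the data) gave 3724 to 5387. The 6000 bp region and every transcript's TSS retained all 3867 genes, and 1000 bp on both sides retained 3617. The following values are in the order −log10 q of 5 or more, 50% inside, 1000 bp on both sides, 6000 bp upstream and every transcript's TSS, and where a value is left out it stayed within the interval of the main value. Peaks sharing a base made up 100%, 93.1% and 92.2% for the first and the last 2 settings. The TSS was covered in both lists in 77.0%, 60.4%, 51.8%, 57.3% and 69.3%. CpG-rich promoters made up 83.0%, 76.3%, 75.4% and 70.6% without the second setting, and 57.3% with limits of 0.55 and 0.75. Divergent promoters made up 12.6%, 23.8%, 13.7%, 14.8% and 13.0%, and 12.5% within 300 bp. The 16 cell-wide lists stood at 4.63%, 15.2%, 39.4%, 36.7% and 44.2% where all genes stood at 1.70%, 7.65%, 21.6%, 19.5% and 24.5%. A q of at most 0.05 and chromosomes 1 to 19 left every value within its interval or within 1.5 times the count. No paired analysis was possible because each state had 1 library. The lists give no reads per peak, so whether a missing peak was below detection is unknown.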

Other observations

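Some members of otherwise unmarked families lay near another gene or were marked by distant peaks. Vmn1r4, a vomeronasal receptor gene, starts 83 bp from Nt5c3, a nucleotidase gene on the opposite strand, under a CpG ratio of 1.03. Gm26602 on chromosome 10 was marked by the same peaks as Med16, which began at 79908520 in proliferating cells and ended 1655 bp before its own TSS. Olfr1331 was the only olfactory receptor gene, with a peak that ended 1025 bp upstream of the TSS in proliferating cells and a −log10 q of 2.52 there and 1.91 in differentiating cells. Il1r2, an interleukin receptor gene, was marked by 2 peaks that shared no base.

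On the mitochondrial genome 7 of 13 protein-coding genes counted as marked in both states, although mitochondrial DNA has no histones. Without them 3860 of 21938 genes were marked, again 17.6%.

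Genes whose names end in Rik were marked in both states in 79 of 581 cases (13.6%), and genes whose 300-base window was at least 50% repeat in 36 of 829 (4.34%).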
